A study of Mus musculus with 9 samples.

Results

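Neuropeptide precursors are the secretory proteins from which neurons cut their signalling peptides, and a small set of them is made mainly by neurons of the hypothalamus. The 9 examined here, Pmch, Hcrt, Oxt, Avp, Trh, Gal, Cartpt, Pomc and Agrp, were taken by gene symbol from the 36346 genes of an RNA sequencing table of mouse brain. They were chosen by name with their FPKM values in these 9 libraries already known, so their levels are described with no test. The libraries came from brains of wild type C57BL/6 mice, 3 mice in each of 3 groups and 1 library per mouse. Sham mice were sampled 72 hours after a control treatment, ICH mice 72 hours after intracerebral haemorrhage, which is bleeding into the brain tissue, and ICH+PTE mice 72 hours after haemorrhage with pterostilbene, a dimethylated relative of the plant compound resveratrol. None of the sources used here gives the dose or route of pterostilbene, how the haemorrhage was made, the age or sex of the mice, or which side and part of the brain was dissected.

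Hypothalamic peptide neurons sit in small nuclei below the thalamus, and each nucleus holds its own peptides. Melanin-concentrating hormone and orexin are made by separate, intermingled neurons of the lateral hypothalamus that act on feeding, sleep and arousal. Oxytocin and vasopressin are made by large neurons of the paraventricular and supraoptic nuclei that release them from the posterior pituitary, whereas agouti-related peptide and proopiomelanocortin mark opposing neurons of the arcuate nucleus that control appetite. In tissue RNA, fewer cells of a type and less RNA per cell cannot be told apart.

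Values are FPKM, fragment numbers relative to transcript length and library total, as the authors deposited them. The sequencing depth is unknown, because whole reads could not be recovered from the values, and no counting interval is given. Of 10 genes used by every cell, 0 were listed at 0 in any library. Differences are on the log2(FPKM + 0.5) scale with a standard error (SE) from a limma fit across all 15376 genes that reached an FPKM of 1 in at least 3 libraries. On it, changes of genes with low values come out too small. That filter passed 8 of the 9 precursors, all but Agrp, and a precursor low in sham mice passed it only through the other groups. ICH libraries held far more phagocyte transcripts than the others, with summed FPKM of 14 marker genes of 9640 to 12850 in ICH mice, 231 to 358 in sham mice and 356 to 885 in ICH+PTE mice. The ICH+PTE libraries, labelled brain, also held low levels of small intestine transcripts that were at or near 0 in the other 6, for which values are given at the end.

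The lateral hypothalamic pair varied most. Pmch, the precursor of melanin-concentrating hormone, lies on the plus strand at chr10:88091072-88092375. Its FPKM was 1.52, 0.606 and 0.266 in sham mice 1, 2 and 3. ICH mice 1, 2 and 3 had 2.37, 0.579 and 192.8, and ICH+PTE mice 1, 2 and 3 had 11.2, 330.0 and 193.2. Thus 1 ICH mouse and 2 ICH+PTE mice were high, all 3 sham mice were low, and the ICH mice spanned a 333-fold range. In ICH+PTE mouse 2 the transcript ranked 54 among all 36346 genes, in ICH+PTE mouse 3 it ranked 96 and in ICH mouse 3 it ranked 150, against ranks of 11480 to 18438 in the other ICH and sham mice. Group means were 0.796 ± 0.647 in sham, 65.3 ± 110.5 in ICH and 178 ± 160.0 in ICH+PTE (SD, n = 3 each), so that the SD exceeded the mean in ICH. The log2 difference was 2.82 for ICH minus sham, 3.43 for ICH+PTE minus ICH and 6.25 for ICH+PTE minus sham, each with an SE of 1.75. Without ICH mouse 3 the first of these was 0.56 and the second 5.69, while the third ranged from 5.32 to 7.73 as single mice were left out.

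Hcrt, the precursor of the orexins, also called hypocretins, lies on the minus strand at chr11:100761069-100762931. It was listed at 0 in sham mouse 1 and at 0.0477 and 0.134 in sham mice 2 and 3. In ICH mice 1, 2 and 3 its FPKM was 0.269, 0 and 29.7, and in ICH+PTE mice 1, 2 and 3 it was 0.471, 39.5 and 20.1. Hcrt was thus high in the same 3 libraries as Pmch and under 1 in the other 6. The ratio of Pmch to Hcrt was 6.49 in ICH mouse 3, 8.35 in ICH+PTE mouse 2 and 9.63 in ICH+PTE mouse 3. In no other library were both transcripts above an FPKM of 1. The log2 difference of Hcrt was 2.02 for ICH minus sham, 2.04 for ICH+PTE minus ICH and 4.06 for ICH+PTE minus sham, with an SE of 1.58 each, and without ICH mouse 3 the first was 0.15 and the second 3.90.

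**Figure D1:**
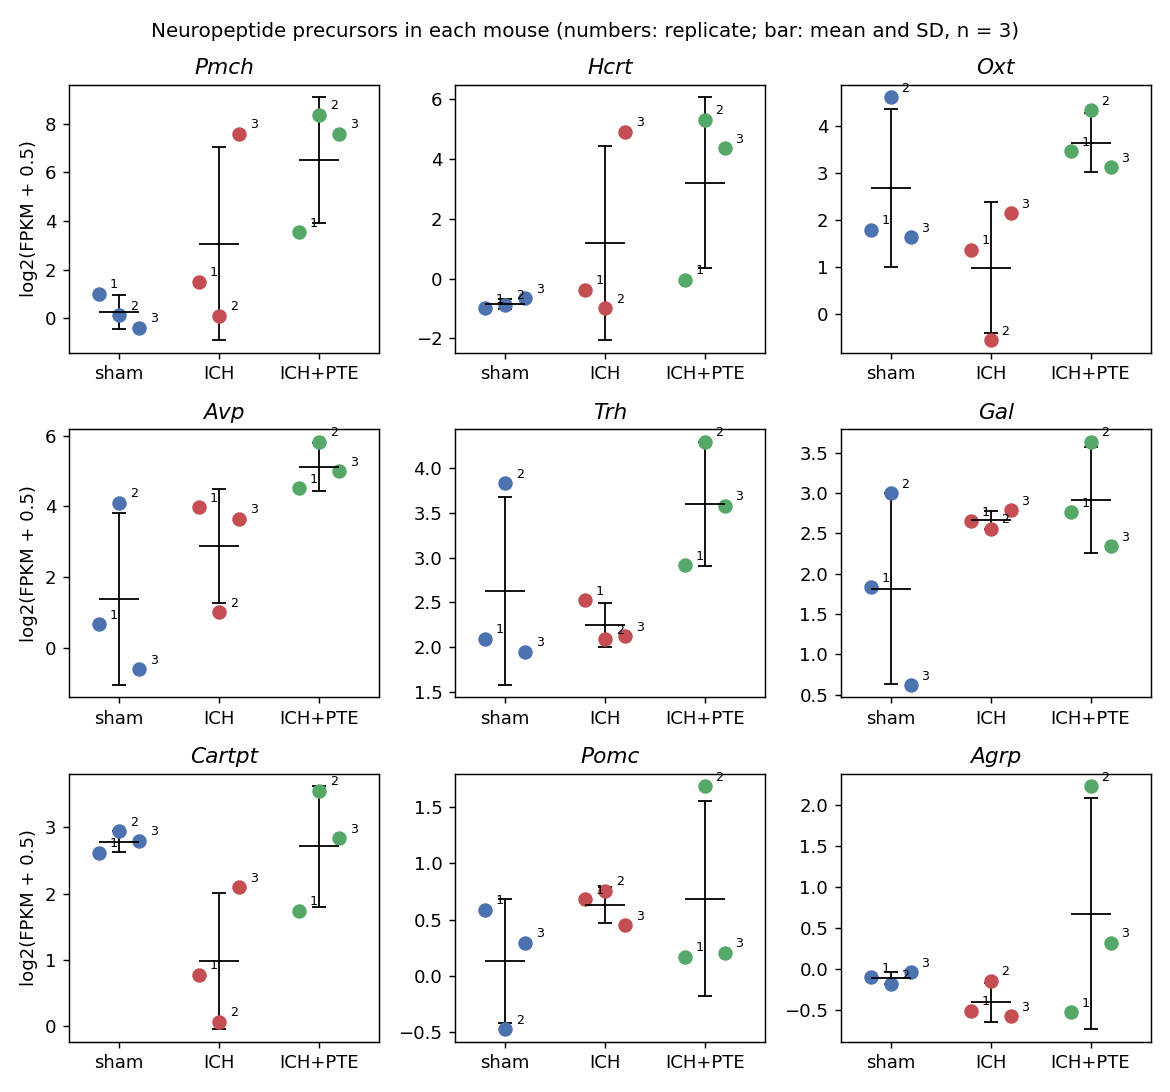
Level of each precursor in every mouse, as log2(FPKM + 0.5) on the vertical axis, by group on the horizontal axis. Points are mice with their replicate number, and bars give the mean and SD of 3 mice. Pmch and Hcrt are high in ICH mouse 3 and in ICH+PTE mice 2 and 3, and ICH+PTE mouse 2 is the highest of its group for all 9 genes.

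The bases just upstream of both starts are shown because the 2 genes were high in the same libraries. RefSeq start sites on GRCm38.p6 were used, and 8 of the 9 precursors had an entry. Searched on both strands were the TATA box (TATAAA), an AP-1 site (TGAGTCA) and a nuclear receptor half-site (TGACC), motifs chosen with the expression values known. They are found in 12.4%, 4.46% and 35.2% of 32851 mouse promoters of the same 250 bases, and no match below overlapped another. Capitals mark matches. The Pmch window (chr10:88090822-88091071, plus strand) held a TATA box 27 bases and an AP-1 site 88 bases upstream of the start, and the Hcrt window (chr11:100762932-100763181, minus strand) held a TATA box 33 bases upstream and neither of the other motifs.
Pmch: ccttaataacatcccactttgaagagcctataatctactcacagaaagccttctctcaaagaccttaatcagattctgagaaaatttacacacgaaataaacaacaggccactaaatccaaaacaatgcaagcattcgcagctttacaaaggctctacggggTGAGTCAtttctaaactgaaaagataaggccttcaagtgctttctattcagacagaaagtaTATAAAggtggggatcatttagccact
Hcrt: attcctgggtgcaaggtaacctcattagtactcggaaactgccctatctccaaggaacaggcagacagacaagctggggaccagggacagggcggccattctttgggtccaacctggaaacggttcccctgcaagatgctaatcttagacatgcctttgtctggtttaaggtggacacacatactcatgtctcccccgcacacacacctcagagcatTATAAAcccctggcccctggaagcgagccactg

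The magnocellular pair lies side by side. Oxt, the precursor of oxytocin, is on the plus strand at chr2:130576173-130577054, and Avp, the precursor of vasopressin, is on the minus strand at chr2:130580620-130582554, 3565 bases beyond the end of Oxt, so that the 2 genes are transcribed toward each other. Oxt had an FPKM of 2.96, 24.1 and 2.61 in sham mice 1, 2 and 3, 2.07, 0.171 and 3.92 in ICH mice, and 10.5, 19.8 and 8.22 in ICH+PTE mice. The highest value of all 9 was that of sham mouse 2, and the 3 ICH+PTE mice lay above the 3 ICH mice. Means were 9.88 ± 12.3, 2.05 ± 1.87 and 12.85 ± 6.14 (SD, n = 3) in sham, ICH and ICH+PTE. The log2 difference was -1.70 for ICH minus sham, 2.67 for ICH+PTE minus ICH and 0.96 for ICH+PTE minus sham, with an SE of 0.83 each. Without sham mouse 2 the first was -0.74 and the last 1.93, and without sham mouse 3 the last was 0.44.

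Avp had an FPKM of 1.08, 16.6 and 0.152 in sham mice 1, 2 and 3. In ICH mice it was 15.2, 1.51 and 12.0, and in ICH+PTE mice 22.3, 56.4 and 31.5. All 3 ICH+PTE mice were above all 6 others, while the sham and ICH mice overlapped. Means were 5.94 ± 9.24 in sham, 9.58 ± 7.16 in ICH and 36.7 ± 17.7 in ICH+PTE (SD, n = 3). The log2 difference was 1.496 for ICH minus sham, 2.24 for ICH+PTE minus ICH and 3.74 for ICH+PTE minus sham, with an SE of 1.10 each. Without sham mouse 3 the first was 0.50 and the last 2.74, without sham mouse 2 they were 2.86 and 5.09, and without ICH mouse 2 the second was 1.304. The ratio of Avp to Oxt also differed between groups. It was 0.364, 0.689 and 0.0582 in sham mice, 7.32, 8.81 and 3.07 in ICH mice, and 2.12, 2.85 and 3.83 in ICH+PTE mice, so that Oxt exceeded Avp in every sham mouse and Avp exceeded Oxt in all 6 others.

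The upstream windows of this pair are shown because the neighbours differed in which libraries were high. The Oxt window (chr2:130575919-130576168, plus strand) held the nuclear receptor half-site 5 times and neither of the other motifs. The Avp window (chr2:130582589-130582838, minus strand) held none of the 3 motifs, so it is printed without capitals. These matches describe letters only.
Oxt: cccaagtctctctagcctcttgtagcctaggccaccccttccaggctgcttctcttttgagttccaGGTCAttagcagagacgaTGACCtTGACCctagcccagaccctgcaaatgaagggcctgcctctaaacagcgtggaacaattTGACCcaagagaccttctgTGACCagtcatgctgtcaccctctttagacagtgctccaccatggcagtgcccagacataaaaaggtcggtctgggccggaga
Avp: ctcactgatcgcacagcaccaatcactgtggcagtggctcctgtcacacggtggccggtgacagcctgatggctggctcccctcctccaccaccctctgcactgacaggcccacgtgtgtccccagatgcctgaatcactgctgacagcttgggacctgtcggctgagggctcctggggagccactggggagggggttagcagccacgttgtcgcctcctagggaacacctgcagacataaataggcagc

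Trh encodes the precursor of thyrotropin-releasing hormone, which drives the thyroid axis from the paraventricular nucleus and is also made elsewhere in the brain. It lies on the minus strand at chr6:92242061-92244650. Its FPKM was 3.76, 13.7 and 3.36 in sham mice 1, 2 and 3, 5.255, 3.75 and 3.855 in ICH mice, and 7.03, 19.1 and 11.45 in ICH+PTE mice. Every ICH+PTE mouse was above every ICH mouse, and sham mouse 2 lay within the ICH+PTE range. The log2 difference was -0.38 for ICH minus sham, 1.35 for ICH+PTE minus ICH and 0.97 for ICH+PTE minus sham, with an SE of 0.47 each. Without sham mouse 2 the first was 0.22.

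Gal, the precursor of galanin, a peptide of many hypothalamic and brainstem neurons, lies on the minus strand at chr19:3409915-3414544. It had an FPKM of 3.05, 7.47 and 1.04 in sham mice, 5.78, 5.38 and 6.40 in ICH mice, and 6.29, 11.9 and 4.56 in ICH+PTE mice. All groups overlapped, and the ICH mice were close together at 5.85 ± 0.512 (SD, n = 3) beside 7.59 ± 3.86 in ICH+PTE. The log2 difference was 0.85 for ICH minus sham, 0.25 for ICH+PTE minus ICH and 1.10 for ICH+PTE minus sham, with an SE of 0.50 each, and the second was -0.11 without ICH+PTE mouse 2.

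Cartpt, the precursor of the CART peptides, which in the arcuate nucleus accompany proopiomelanocortin and in the lateral hypothalamus melanin-concentrating hormone, lies on the minus strand at chr13:99898489-99901091. Its sham values were close together, at an FPKM of 5.64, 7.175 and 6.47. ICH mice had 1.21, 0.549 and 3.77, all below the sham mice, and ICH+PTE mice had 2.85, 11.2 and 6.655. The log2 difference was -1.81 for ICH minus sham, 1.73 for ICH+PTE minus ICH and -0.07 for ICH+PTE minus sham, with an SE of 0.51 each. Of the 9 precursors, Cartpt alone had ICH and sham mice that did not overlap.

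Pomc, the precursor of melanocortins and beta-endorphin, lies on the plus strand at chr12:3954951-3960618 and was low throughout. It had an FPKM of 1.002, 0.217 and 0.725 in sham mice, 1.102, 1.19 and 0.865 in ICH mice, and 0.625, 2.73 and 0.652 in ICH+PTE mice. ICH+PTE mouse 2 stood alone above the rest, and the groups overlapped. Its log2 difference was 0.50 for ICH minus sham, 0.06 for ICH+PTE minus ICH and 0.55 for ICH+PTE minus sham, with an SE of 0.40 each.

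Agrp, the precursor of agouti-related peptide, was under an FPKM of 1 in 8 of 9 libraries and was not tested. It had 0.4345, 0.382 and 0.476 in sham mice, 0.205, 0.408 and 0.172 in ICH mice, and 0.195, 4.19 and 0.749 in ICH+PTE mice. Only ICH+PTE mouse 2 passed 1. Its row spans 70696 bases on the minus strand (chr8:105566698-105637393) and overlaps other genes on that strand, so reads of those genes may be counted with it and its low values are uncertain.

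**Figure D2:**
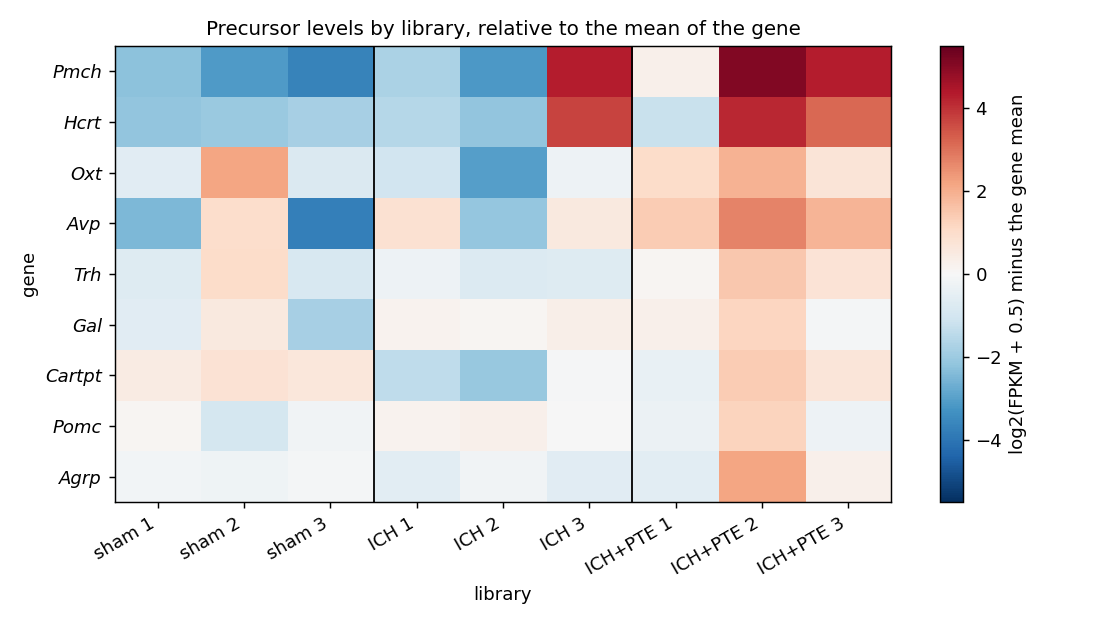
Level of each precursor (rows) in each library (columns), coloured by log2(FPKM + 0.5) minus the mean of that gene over 9 libraries, red above and blue below. Black lines separate the groups. ICH+PTE mouse 2 is red in 9 of 9 rows, and ICH mouse 3 is deep red for Pmch and Hcrt.

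Which library was highest differed between the 9 genes. ICH+PTE mouse 2 held the highest value of 8 of the 9 genes and sham mouse 2 that of Oxt. Within sham, mouse 2 was highest for 5 genes, and within ICH, mouse 3 was highest for 5. The ICH+PTE mean was the highest of the 3 groups for 9 of 9 genes, and for 5 of 9 when ICH+PTE mouse 2 was left out. The sum of the 9 FPKM values was 19.45, 70.3 and 15.2 in sham mice, 33.4, 13.5 and 253.6 in ICH mice and 61.5, 495.0 and 277.0 in ICH+PTE mice. Pmch made up 76.05%, 66.7% and 69.7% of that sum in ICH mouse 3 and ICH+PTE mice 2 and 3, and at most 18.2% elsewhere. The other 7 genes, without Pmch and Hcrt, summed to 17.9, 69.7 and 14.8 in sham, 30.8, 12.96 and 31.0 in ICH and 49.8, 125.5 and 63.8 in ICH+PTE. ICH mouse 3, which held abundant Pmch, therefore had a sum of the other 7 close to that of ICH mouse 1.

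The precursors were also set against 14 genes that all neurons express. These 14 summed to 1167, 1193 and 1209 FPKM in sham, 661, 518 and 532 in ICH and 1120, 907 and 1069 in ICH+PTE. As a percent of that sum, Pmch came to 0.130%, 0.0508% and 0.0220% in sham mice, 0.358%, 0.112% and 36.2% in ICH mice and 1.0%, 36.4% and 18.1% in ICH+PTE mice. Avp came to 0.0923%, 1.39% and 0.0126% of it in sham mice, 2.30%, 0.291% and 2.26% in ICH mice and 1.99%, 6.22% and 2.95% in ICH+PTE mice. On this scale ICH+PTE mouse 1 fell below ICH mice 1 and 3 for Avp, so that the groups overlapped, and ICH mouse 3 and ICH+PTE mouse 2 had nearly the same Pmch.

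Mice of 1 group differed widely in these genes, which belongs to how the genes were chosen and is given as a description. The pooled SD of log2(FPKM + 0.5) within groups, with 6 degrees of freedom, was 2.77 for Pmch, 2.503 for Hcrt, 1.74 for Avp and 1.31 for Oxt, against a median of 0.182 over all 15376 tested genes. These ranked 2, 3, 5 and 16, and the gene with the largest spread was Ttr, a choroid plexus transcript, at 2.85. Trh at 0.74, Gal at 0.79, Cartpt at 0.80 and Pomc at 0.60 ranked 130, 105, 100 and 310. The median of the 8 tested precursors was 1.06, whereas it was 0.207 for 20 genes of peptide processing and 0.331, 0.386 and 0.373 for genes of the thalamus, the striatum, and the cortex and hippocampus. Choroid plexus genes had a median of 0.775. No test is attached to this difference.

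**Figure D3:**
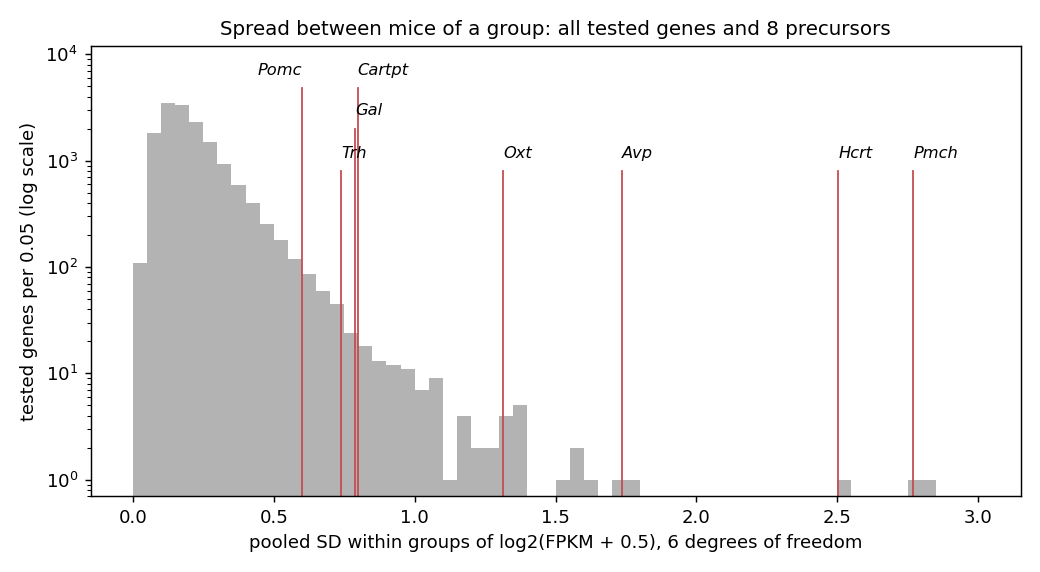
Pooled SD within groups of log2(FPKM + 0.5) on the horizontal axis, against the number of tested genes per interval of 0.05 on the vertical axis, which is logarithmic. Red lines mark the 8 tested precursors. Pmch and Hcrt lie at the far right at 2.77 and 2.503, while the median of all tested genes is 0.182.

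Every library enters more than 1 of the 3 comparisons between groups, so the comparisons share libraries and their values are given side by side. The groups did not overlap for 1 of 8 tested precursors in ICH minus sham (Cartpt), beside 73.5% of all tested genes, and for 3 of 8 in ICH+PTE minus ICH (Oxt, Avp and Trh), beside 64.7%. In ICH+PTE minus sham they did not overlap for 3 of 8 (Pmch, Hcrt and Avp), beside 38.6%. Nothing is read from these counts, since the values were used in choosing the genes. Median log2 differences of the 8 were 0.67, 1.88 and 1.03 in the same order, where the medians of all tested genes were -0.02, -0.02 and -0.03.

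Genes with the most similar profile over the 9 libraries were sought for each tested precursor, by the root-mean-square distance of log2(FPKM + 0.5) after centring each gene. Pmch and Hcrt were each other's nearest gene at a distance of 1.07 log2 units, and the next gene was Rbp7 at 2.21 from Pmch and 1.70 from Hcrt. Rps3a2 followed for Pmch at 2.33 and Abhd12b for Hcrt at 1.85. The nearest genes to Oxt were Arhgap36 at 0.67, AW551984 at 0.73 and Irs4 at 0.76, and those to Cartpt were Baiap3 and Dlk1 at 0.43 and Arhgap36 at 0.44. The nearest to Avp were Serpina3m at 1.37, Rps27a-ps2 at 1.38 and Rbp7 at 1.39. Sytl4 at 0.29, Asb4 at 0.40 and BC035947 at 0.42 were nearest to Trh. Gal was nearest to Gm7079 at 0.42, Rps27rt at 0.43 and Cited1 at 0.45, and Pomc to Gm3788 and Gm36995 at 0.31 and Cd59b at 0.33. Ribosomal protein copies such as Rps3a2, Rps27a-ps2 and Rps27rt share reads with near-identical genes and are uncertain. Distances are larger for genes of large spread, and all points share the same 9 libraries.

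Peptide precursors are cut and packed by a common machinery, whose genes were read from the fit across all tested genes. Of 20 genes of peptide processing and storage, all tested, 17 were lower and 1 higher in ICH than in sham at a limma adjusted p under 0.05, where 63.7% of all tested genes were called, 32.1% as lower and 31.6% as higher. Pcsk1, a convertase that cuts many precursors, was at an FPKM of 3.74, 5.48 and 4.95 in sham mice, 0.881, 0.561 and 0.945 in ICH mice and 4.45, 3.90 and 4.51 in ICH+PTE mice. Its log2 difference in ICH was -2.01 ± 0.17 (SE, limma adjusted p 6.54e-06). Ptprn2, a secretory granule protein, fell by 2.27 ± 0.24 on the log2 scale (limma adjusted p 2.66e-05), Cadps2 by 1.78 and Rab3c and Pcsk2 by 1.66 and 1.63. Pcsk1 and Cadps2 were under an FPKM of 1 in every ICH mouse, so they were tested only through the groups where they are high. Cpd, a carboxypeptidase that many cell types use, was the 1 that rose, by 0.88 ± 0.12 (limma adjusted p 0.000145). Over the same 3 groups 14 of 14 pan-neuronal genes were also lower in ICH than in sham, with a median log2 difference of -1.19 beside -1.30 for the 20 processing genes. The part of the pan-neuronal genes in this result was not tested.

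Of the 20 processing genes, 18 were higher in ICH+PTE minus ICH and 1 was lower by the same limma fit, where 56.9% of all tested genes were called, 26.4% as higher and 30.5% as lower. Pcsk1 rose by 1.895 ± 0.17 (SE, limma adjusted p 2.29e-05), Ptprn2 by 1.88, Resp18, a granule protein, by 1.83, Cadps2 by 1.82 and Rab3c by 1.52, and Cpd fell by 0.86. Their median difference was 1.15, while 12 of 14 pan-neuronal genes also rose. In ICH+PTE minus sham only 2 of 20 were called, where 23.4% of all tested genes were (11.3% higher, 12.1% lower), and both were lower. They were Vgf, a peptide precursor of many neurons, with a log2 difference of -0.88 ± 0.14 (SE, limma adjusted p 0.00265), and Ptprn at -0.49 ± 0.12 (limma adjusted p 0.0191). The Ptprn call was lost without sham mouse 1, 2 or 3 or ICH+PTE mouse 3, at limma adjusted p of 0.0505, 0.0586, 0.0525 and 0.0505, which left 1 of 20. Of all genes, 3603 were called in ICH+PTE minus sham, and 2224 and 2089 without sham mouse 2 or 3.

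Receptors of the peptides were mostly too low to test, with 9 of 17 under an FPKM of 1 in all 9 libraries and 4 tested. In ICH minus sham 3 of these 4 were lower and 0 higher, beside 63.7% of all tested genes called and 32.1% lower, from which nothing is read at this number. Mchr1, the receptor of melanin-concentrating hormone, had an FPKM of 12.7, 10.5 and 16.5 in sham mice, 8.035, 3.41 and 5.645 in ICH mice and 6.80, 5.87 and 5.635 in ICH+PTE mice. It was highest in the 3 sham mice, the group in which the mean of Pmch, its ligand precursor, was lowest. The log2 difference of Mchr1 was -1.20 ± 0.25 for ICH minus sham and -1.04 ± 0.25 for ICH+PTE minus sham (SE, limma adjusted p 0.00215 and 0.0168). The second call was the 1 of 4 tested receptors called in ICH+PTE minus sham, beside 23.4% of all tested genes. That call was lost without sham mouse 3 at -0.87 (limma adjusted p 0.065), which left 0 called and 1 at an unadjusted p under 0.05. Of 15 striatal genes, 15 were also lower in both comparisons with sham, and their part in the Mchr1 result was not tested. Trhr, the receptor of thyrotropin-releasing hormone, differed by -1.58 ± 0.29 in ICH minus sham and 1.09 ± 0.29 in ICH+PTE minus ICH (SE, limma adjusted p 0.000963 and 0.00985). It reached an FPKM of 1 in exactly 3 libraries, 2 of sham and 1 of ICH+PTE, and so was tested only through the groups where it is high. Mrap2, an accessory protein of melanocortin receptors, differed by -0.96 ± 0.21 and 1.23 ± 0.21 (SE, limma adjusted p 0.00239 and 0.00076). Trhr and Mrap2 were the 2 of 4 tested receptor genes called in ICH+PTE minus ICH, beside 56.9% of all tested genes, and nothing is read from this count. It was 1 without sham mouse 2 or 3 or ICH+PTE mouse 3, each of which took Trhr out of the test.

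Transcription factors that pattern the hypothalamus were likewise low. Of 28 listed, 17 stayed under an FPKM of 1 in all libraries and 9 were tested. In ICH minus sham 5 were lower and 2 higher, so 7 of 9 were called beside 63.7% of all tested genes. Lhx6 and Nkx2-1, found in hypothalamic and in other forebrain neurons, fell by 1.15 ± 0.28 and 1.01 ± 0.24 (SE, limma adjusted p 0.00464 and 0.00396), and Pou3f2 and Arnt2, needed for the paraventricular nucleus but broadly expressed, fell by 0.87 and 0.82. Isl1, also a striatal gene and named after its values were seen, differed by -0.73 (limma adjusted p 0.0188), a call lost without sham mouse 2, ICH mouse 2 or ICH mouse 3 (adjusted p 0.0521, 0.0615 and 0.077). The 2 that rose were Nkx2-2, a gene also of the oligodendrocyte lineage, by 1.54 ± 0.23 (SE, limma adjusted p 0.000248), and Tcf7l1, named after its values were seen, by 0.70. Tcf7l1 was under an FPKM of 1 in every sham mouse, so it was tested only through the other groups.

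Of the 9 tested factors, 3 rose in ICH+PTE minus ICH and 2 fell there, a share near the 56.9% called of all tested genes. Arnt2 rose by 0.92, Pou3f2 by 0.67 and Prox1, also a gene of hippocampal granule cells, by 0.69, while Nkx2-2 fell by 1.45 and Six3, also a striatal gene, by 0.67. The Prox1 call was lost without ICH mouse 3 or ICH+PTE mouse 2 or 3 (limma adjusted p 0.083, 0.0526 and 0.0814). The Six3 call was lost without sham mouse 3, ICH mouse 1 or 2 or ICH+PTE mouse 1 (limma adjusted p 0.0516, 0.142, 0.085 and 0.128). Against sham, 1 was higher and 1 lower in ICH+PTE, near the 23.4% called of all tested genes. These were Prox1 at 0.78 and Six3 at -0.84 (limma adjusted p 0.0283 and 0.0331). By limma the count was 0 without sham mouse 2 or 3 (2 in each case at an unadjusted p under 0.05) and 1 without ICH+PTE mouse 3.

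Otp, a factor of paraventricular and arcuate neurons, was too low to test and is named after its values were seen. Its FPKM was 0.1245, 0.824 and 0.0149 in sham mice, 0.155, 0.0362 and 0.154 in ICH mice and 0.861, 3.29 and 1.58 in ICH+PTE mice. Fezf1, a factor of the ventromedial nucleus singled out in the same way, was at 0.144, 0.3575 and 0.120 in sham, 0.0611, 0.0504 and 0.0568 in ICH, and 0.491, 2.19 and 1.03 in ICH+PTE mice. ICH mouse 3, among the highest for Pmch, was low for both factors, and ICH+PTE mouse 2 was the highest of 9 for both. Of the 19 untested factors, 14 were highest in ICH+PTE mouse 2, 4 in ICH+PTE mouse 3 and 1 in ICH+PTE mouse 1. The matching share of all genes was not worked out, so nothing is read from this count. Of all 28 factors, 10 were higher in all 3 ICH+PTE mice than in all 6 others, beside 3.91% of all genes in the table.

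Of 41 other genes known from the hypothalamus, 26 were tested. In ICH minus sham 19 of 26 were lower and 0 higher, with a median log2 difference of -1.31, beside 32.1% lower of all tested genes. Of the 14 pan-neuronal genes, 14 were lower in the same comparison with a median of -1.19, and their part in this result was not tested. The largest falls were those of Ngb, a neuronal globin, by 2.45 ± 0.22 (SE, limma adjusted p 1.02e-05), Baiap3 by 2.42, Nts, the precursor of neurotensin, by 2.32, Dlk1 by 2.27 and Zcchc12 by 1.99. The count was 18 higher and 0 lower in ICH+PTE minus ICH, beside 26.4% higher of all tested genes and 12 of the 14 pan-neuronal genes, with Ngb at 2.58, Dlk1 at 2.28, Irs4 at 2.17, Baiap3 at 1.99 and Gabrq at 1.98. Irs4 and Gabrq were under an FPKM of 1 in every ICH mouse, so they were tested only through the groups where they are high. The same holds for Magel2, Vip, Adcyap1, Asb4, Slc18a2 and Pgr, named after their values were seen. Both counts include such genes. In ICH+PTE minus sham 3 were lower and 0 higher, near the 12.1% lower of all tested genes, and 5 were lower without ICH+PTE mouse 3. The 3 were Pdyn, Ecel1 and Sst, at -1.32 ± 0.17, -0.77 ± 0.18 and -0.59 ± 0.17 (SE, limma adjusted p 0.000807, 0.0124 and 0.0333). Pdyn and Sst, the precursors of dynorphins and somatostatin, are also made by striatal neurons, and the Sst call was lost when any 1 sham or ICH+PTE mouse was left out (adjusted p 0.0555 to 0.102). The median spread within groups of these 26 genes was 0.36 log2 units, beside 1.06 for the 8 tested precursors.

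Genes of other brain parts describe what else the libraries held, and their part in the precursor values was not tested. Choroid plexus genes, 9 listed, summed to 954, 267 and 60.7 FPKM in sham mice, 902, 30.0 and 47.0 in ICH mice and 403, 10.4 and 14.75 in ICH+PTE mice. Ttr made up 82.4% or more of the sum in the sham and ICH mice, and 96.5%, 39.4% and 52.2% in ICH+PTE mice 1, 2 and 3. In each group mouse 1 was the highest for them. The sum was under 50 in the 3 libraries with high Pmch and Hcrt, but also in ICH mouse 2, where Pmch was at 0.579 and Hcrt at 0. Without the 3 mice numbered 1, chosen after these sums were seen, the log2 difference of Pmch was 3.97 for ICH minus sham, 4.13 for ICH+PTE minus ICH and 8.10 for ICH+PTE minus sham.

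Thalamic genes summed to 245 to 257 (sham mice), 142 to 174.5 (ICH mice) and 285 to 350 (ICH+PTE mice). Striatal genes summed to 1202 to 1669, 421 to 920 and 452 to 598, and cortical and hippocampal genes to 107 to 129, 29.2 to 36.5 and 101.5 to 207. Within ICH, where Pmch spanned a 333-fold range, all 3 of these sums were lower than in sham mice. The thalamic sum was mostly Cplx1, at 159 to 181 in sham mice and 83.1 to 112.5 in ICH mice. Of 13 tested thalamic genes, 6 were lower and 3 higher in ICH than in sham by limma, with a median log2 difference of -0.07. Of all tested genes, 32.1% were lower and 31.6% higher there. In ICH+PTE minus ICH 7 of the 13 were higher and 1 lower, with a median of 0.67. Of all tested genes 26.4% were higher and 30.5% lower. Against sham, 7 were higher and 0 lower in ICH+PTE, with a median of 0.68, beside 11.3% higher and 12.1% lower of all tested genes. Lef1 and Tnnt1, named after their values were seen, were under an FPKM of 1 in every sham mouse, so they were tested only through the other groups. Of 12 pituitary markers 9 had an entry, 8 of these 9 stayed under an FPKM of 1 in all libraries, and their sum was 0.659 to 1.22 in sham mice, 1.69 to 2.03 in ICH mice and 1.72 to 2.69 in ICH+PTE mice. Most of that sum was Gata2 in every library, the only marker to pass an FPKM of 1. Gh, growth hormone, reached at most 0.237 and Tshb, a thyrotropin subunit, 0.485. Pomc was at 0.217 to 2.73 over the 9 mice, and 0.217, in sham mouse 2, was its lowest value. The part of pituitary transcripts in the Pomc values was not tested. Genes of tanycytes and ependyma, which line the third ventricle beside these nuclei, summed to 64.1 to 80.4 in sham mice, 76.3 to 86.3 in ICH mice and 45.5 to 50.2 in ICH+PTE mice. Without Crym, which held a large part of that sum and is also made by neurons, the ranges were 31.8 to 42.55, 28.2 to 35.5 and 28.3 to 32.8 and overlapped. By limma 2 of the 8 tested genes of that list were lower and 0 higher in ICH+PTE than in sham. Of all tested genes 23.4% were called there, 12.1% as lower, and nothing is read from a count this small. Midbrain and hindbrain genes summed to 4.58 to 6.21 in sham mice, 3.04 to 4.79 in ICH mice and 6.86 to 8.00 in ICH+PTE mice. Of the 13 genes in the table, only Ddc was higher in all 3 ICH+PTE mice than in all 6 others. Ddc was at an FPKM of 5.13 to 6.28 in ICH+PTE mice, which was most of their sum, and at most 2.70 elsewhere. Mean Th and Tph2 were lower in ICH+PTE than in sham, at 1.62 against 2.55 and 0.099 against 0.346. Ddc, an enzyme of dopamine and serotonin synthesis, was higher in ICH+PTE than in ICH by 1.35 ± 0.16 and than in sham by 1.06 ± 0.16 (SE, limma adjusted p 9.69e-05 and 0.0018).

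Transcripts of another organ also set the ICH+PTE mice apart. Of 28 genes of the small intestine, 10 were higher in all 3 ICH+PTE mice than in all 6 others, which held for 3.91% of all genes in the table. It also held for 10 of the 28 hypothalamic transcription factors. The examples given here were named after their values were seen. Defa24, a defensin of Paneth cells, was at 0 in the 6 sham and ICH mice and at 2.92, 0.833 and 2.53 in ICH+PTE mice 1, 2 and 3. Fabp2, a fatty acid binder of enterocytes, was at 0 in those 6 mice but for 0.122 in ICH mouse 2, and at 0.975, 1.02 and 1.68 in ICH+PTE mice. Reg3g and Zg16, other products of the gut lining, were at 0 in all 6 and above 0 in all 3 ICH+PTE mice. The summed list was at 18.5 to 28.8 in sham mice, 34.8 to 44.4 in ICH mice and 21.6 to 36.35 in ICH+PTE mice, which overlapped both other groups. Apoa1, Fabp1 and Anpep had the highest means of the list, and 18 of the 28 genes stayed under an FPKM of 1 in all 9 libraries. These most abundant genes did not follow the examples. Mean FPKM in sham, ICH and ICH+PTE was 9.06, 7.68 and 5.57 for Apoa1 and 8.63, 6.87 and 4.46 for Fabp1. For Anpep it was 0.789, 17.5 and 1.62. Of 6 enteric neuron genes in the table, 0 were higher in all 3 ICH+PTE mice than in all others. Genes of the list differed in their order between ICH+PTE mice 1 and 2, where Hcrt was at 0.471 and 39.5. Defa24 was at 2.92 and 0.833 in these 2 mice, Vil1 at 0.407 and 0.880, and Fabp2 at 0.975 and 1.02. In ICH mouse 3, where Pmch was at 192.8, Defa24 was at 0 and Vil1 at 0.466. The part of the small intestine transcripts in the precursor values was not tested.

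**Figure D4:**
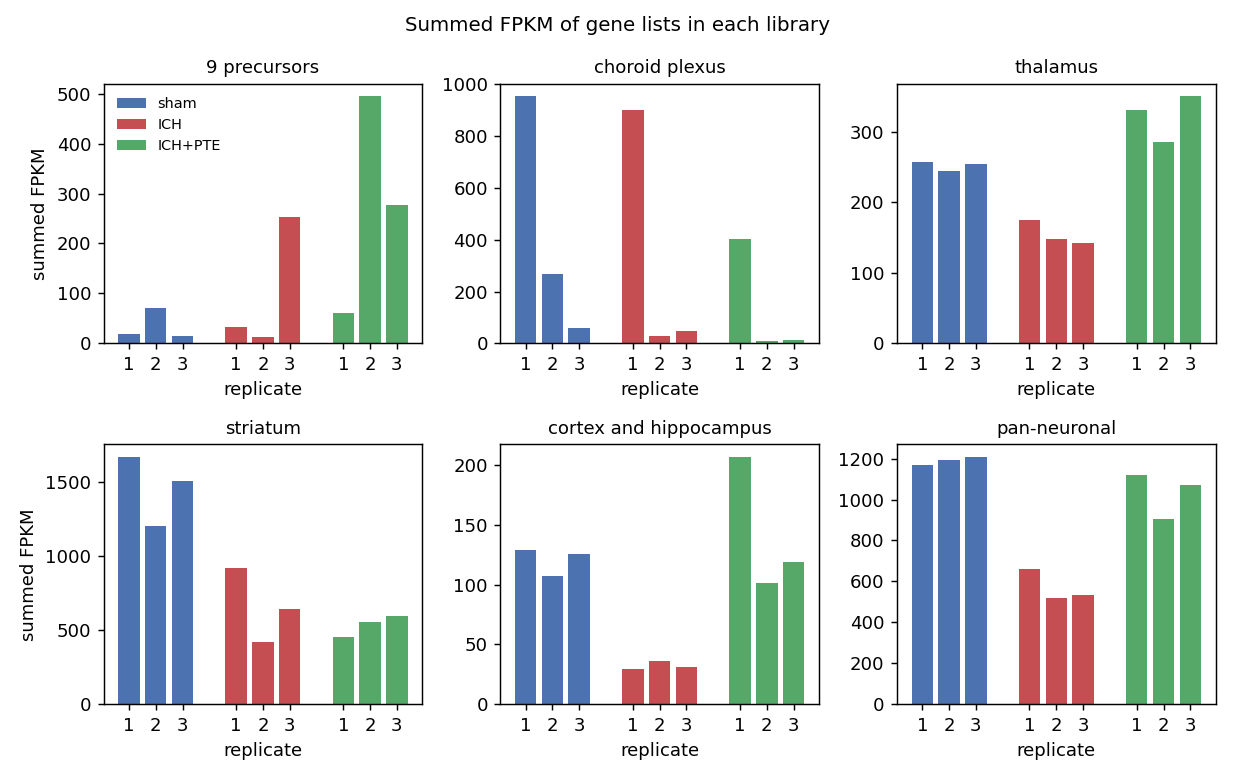
Summed FPKM of 6 gene lists on the vertical axes, which start at 0 and differ in scale, for each replicate of the 3 groups on the horizontal axes. The precursors reach 253.6 in ICH mouse 3 and 495.0 and 277.0 in ICH+PTE mice 2 and 3, while choroid plexus genes are highest in the mouse numbered 1 of each group.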

How the data were processed

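RNA from brains of 9 mice, 3 per group, was sequenced, and groups were taken from the labels. The submitters' processing notes name HISAT2 2.0.4, StringTie 1.3.4d and cutadapt 1.9. Libraries were made after selection with oligo(dT) and a strand-keeping library preparation, per the labels' protocols. The authors deposited 1 table with an FPKM value per gene and library. FPKM values are scaled by transcript length and mapped total, so count models were not applied. No source used here names the genome build, and 33201 of 36224 genes with a shared identifier (91.7%) had the same start and end in GENCODE M21 (GRCm38). Coordinates are those of the deposited table, and promoters are RefSeq windows of GRCm38.p6.

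From these values, limma 3.58.1 in R 4.3.3 was fitted with a mean-variance trend to log2(FPKM + 0.5), with 1 mean per group over all 9 libraries and 6 residual degrees of freedom. The 15376 genes reaching an FPKM of 1 in 3 or more libraries were tested. A call needed a p, adjusted by Benjamini-Hochberg, under 0.05. The script was tested on simulated data. Whole reads were sought from the steps between low values of single-exon genes. At the best step 16.6% to 21.6% of them were whole within 0.02 of a step, where the tolerance alone gives 4%. Most values were not whole, so depth is taken as unknown. The p-values set the difference between group means against the spread between mice of a group, which the fit moderates across genes.

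The members, the lists and the motifs were chosen with earlier results of these data known. Named are all 9 precursors, up to 5 called genes per pathway list and comparison with the largest difference, the 3 nearest genes of each tested precursor, and up to 3 genes of each marker list with the highest mean. Other genes are said to be named after their values were seen. Alternatives were pseudocounts of 0.1 and 1, no filter, TPM with and without haemoglobin and mitochondrial genes, only the 2 groups compared, the replicate number as a block, and leaving out each library. One that leaves out the 3 libraries numbered 1 was chosen after seeing the data.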

Additional observations from a re-analysis of the deposited data

How the results depend on the processing

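Of the 27 log2 differences of precursors, 23 kept their sign in all 17 alternatives. The other 4 were Trh in ICH minus sham, Gal and Pomc in ICH+PTE minus ICH and Cartpt in ICH+PTE minus sham, and the cause was not tested. ICH+PTE had the highest mean for 5 to 9 of the 9 precursors as single libraries were left out. Without the filter 36346 genes were tested by limma, among them 17 receptors and 28 transcription factors. In ICH minus sham 9 receptors were called, beside 10590 of all genes. In ICH+PTE minus ICH 6 receptors and 9 transcription factors were called, beside 9211 of all genes. Between ICH+PTE and sham the calls were 0 receptors, 0 transcription factors and 1 processing gene, beside 2693 of all genes. There 1 receptor and 14 transcription factors had an unadjusted limma p under 0.05. TPM without haemoglobin and mitochondrial genes gave 5 receptors in ICH minus sham, and the fit of only the 2 groups compared gave 1 transcription factor in ICH+PTE minus sham. With single libraries left out, receptors called in ICH+PTE minus ICH ranged from 1 to 2, and in ICH+PTE minus sham the ranges were 2089 to 3694 for all genes, 1 to 2 for processing genes, 0 to 1 for receptors, 0 to 2 for transcription factors and 2 to 5 for other hypothalamic genes. Deviations of same-numbered mice from their group means correlated positively over genes in every pair, at 0.00313 to 0.252. Those of differently numbered mice correlated at -0.302 to 0.19. Whether the replicate number pairs the samples was not tested, and the main fit leaves it out. With the number as a block 1 transcription factor was called in ICH+PTE minus sham, beside 3833 genes of all tested. Scaling to TPM moved the median of all tested genes from -0.02 to -0.18 in ICH minus sham and from -0.03 to -0.15 in ICH+PTE minus sham, where 1251 genes were then higher and 2989 lower. Without haemoglobin and mitochondrial genes the medians moved to -0.30 in ICH minus sham, with 3440 higher and 7099 lower, and 0.22 in ICH+PTE minus ICH, with 6161 higher and 3111 lower, so changes of the lists are relative to the scaling. Depth is unknown, so no limit for values listed at 0 is given.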

Other observations

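Several transcription factors of single hypothalamic nuclei were under an FPKM of 1 in all libraries and are given as values, named after these were seen. Nr5a1, which marks the ventromedial nucleus, was at 0, 0.0238 and 0.0445 in sham mice 1, 2 and 3, 0.0519, 0 and 0.0404 in ICH mice and 0, 0.995 and 0.2135 in ICH+PTE mice. Bsx, a factor of arcuate Agrp neurons, was at 0.137, 0.189 and 0.207 in sham mice, 0.0852, 0 and 0 in ICH mice and 0.125, 0.889 and 0.310 in ICH+PTE mice. Nkx2-4 was listed at 0 in all 6 sham and ICH mice and at 0.0306, 0.469 and 0.113 in ICH+PTE mice. For these 3 factors ICH+PTE mouse 2 was the highest of the 9 libraries, but they are not typical of all. Sim1, Lhx1, Lhx9 and Barhl1 were highest in ICH+PTE mouse 3 and Ebf3 in ICH+PTE mouse 1, and ICH mouse 3 was at 0.159 for Lhx1 and 0.684 for Tbx3.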
